A study of Mus musculus with 44 samples.

Results

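Slc45a3 has 4 annotated transcripts with start sites of their own, and 4C-seq was used to read chromatin contacts from bait fragments at the first 2 of these sites, the long and the short promoter. The contacts of the downstream, short bait were compared with those of the upstream, long bait within liver and within kidney, at the same genomic fragments. The deposited tables held 6074 fragments for the short bait and 6071 for the long bait, of which 6048 were in both. Fragments closer than 10 kb to either bait were left out (16), so 6032 fragments were compared, of 30070 fragments in the tables of all 5 baits of the series. Each of the 4 combinations of bait and tissue had 2 libraries, labelled EF and GH, so 8 of the 44 libraries of the series were used for contacts. All 8 came from C57BL/6 wild-type mice, 8 to 12 weeks old, fed ad libitum and sampled at zeitgeber time (ZT) 20. The labels' protocol describes crosslinked nuclei of whole liver and whole kidney from individual animals, so each value is an average over the cell types of the organ. Kidney RNA from 12 libraries of 129SV wild-type mice, also 8 to 12 weeks old but on night-restricted feeding and sampled at 6 times of day, was used to describe the transcripts of the start sites.

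The deposited tables gave 1 contact signal per tissue and fragment, with both libraries already combined. No spread between libraries could therefore be computed, and no difference below carries a test or a p-value. The tables also have a column named as the variance of each signal, and the square root of the summed variances of both baits is quoted below as the combined deposited standard deviation (SD). How it was computed is not given in the sources used here, and depth per library is unknown. The scale of the signal is not stated either, so differences are given in signal units first. The signals of the baits came from separate tables, and a difference in level between them can hold a difference in scale between tables.

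4C-seq cuts crosslinked chromatin with a restriction enzyme, ligates the ends and sequences what was joined to a chosen bait fragment. Signal falls steeply with distance from the bait, because neighbouring sequence meets by chance more often than distant sequence. Promoters of 1 gene that lie close together share most of their surroundings, and alternative promoters can still differ in the enhancers and genes they touch. Slc45a3 encodes a membrane protein of the SLC45 sugar transporter family, best known as prostein of the prostate. Its neighbours include Nucks1, which encodes a nuclear DNA-binding phosphoprotein, Elk4, which encodes an ETS transcription factor, and Nuak2, which encodes a kinase of the AMPK-related family.

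The baits were located on GRCm38 by matching the fragment offsets of each table to DpnII (GATC) fragments of chromosome 1, and 100% of offsets matched for each bait. The long bait lay at position 131962937, 30 bp before the annotated start of transcript Slc45a3-202 (131962967, plus strand). The short bait lay 8444 bp downstream, at position 131971381, which is 772 bp after the start of Slc45a3-201 (131970609). The fragment around the long bait ran from 131962568 to 131963308 and contained exon 1 of Slc45a3-202. The fragment around the short bait ran from 131970888 to 131971876, wholly within the first intron of Slc45a3-201. The other transcripts, Slc45a3-204 and Slc45a3-203, start further downstream, at 131976719 and 131978964, and had no bait. Slc45a3-202 and Slc45a3-201 have 5 exons each and begin exon 2 at the same base (131976718), so they differ mainly in the first exon. The left ends of the bait fragments are printed with the GATC cut site in capitals, on the plus strand of GRCm38. Which end the contacts were read from is not given in the sources used here.
Long bait, left end (chr1:131962568-131962627): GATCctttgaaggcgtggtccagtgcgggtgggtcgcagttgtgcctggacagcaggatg
Short bait, left end (chr1:131970888-131970947): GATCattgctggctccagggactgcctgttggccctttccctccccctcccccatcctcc

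The 250 bases before each RefSeq start show how different the paired promoters are in sequence (RefSeq, GRCm38.p6, plus strand). Capitals mark any match, on either strand, to the 4 factor motifs named below.
Long promoter (chr1:131962665-131962914): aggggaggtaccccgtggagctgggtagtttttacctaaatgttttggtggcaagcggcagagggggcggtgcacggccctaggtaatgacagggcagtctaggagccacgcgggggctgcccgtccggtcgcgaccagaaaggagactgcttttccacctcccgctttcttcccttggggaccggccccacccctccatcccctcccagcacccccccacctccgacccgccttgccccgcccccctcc
Short promoter (chr1:131970359-131970608): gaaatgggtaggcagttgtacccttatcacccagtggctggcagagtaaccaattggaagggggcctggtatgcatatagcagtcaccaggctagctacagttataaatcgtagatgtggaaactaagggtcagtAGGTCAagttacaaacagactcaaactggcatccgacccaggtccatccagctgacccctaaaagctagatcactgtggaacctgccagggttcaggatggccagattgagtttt

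The long promoter was GC-rich, at 66.8% GC with 15 CpG dinucleotides, and the short promoter had 49.2% GC and 2 CpG dinucleotides. The factor motifs searched were the E-box CACGTG, the D-box TTATGTAA, the nuclear receptor core AGGTCA and the HNF1 site. The short promoter held 1 nuclear receptor core, a match found in 14.0% of 32851 promoter windows of the same length. Neither window held the E-box, which 6.02% of promoter windows did. Neither held the D-box or the HNF1 site, which were found in only 0.819% and 0.00913% of promoter windows. The DpnII site GATC was also searched, and left in lower case here. The short promoter held 1 and the long promoter 0, against 41.9% of promoter windows with a match. All are matches of letters in 250 bases, not measured sites.

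As deposited, the short bait had more signal than the long bait across most of the surrounding sequence in both tissues. Over the 6032 fragments the mean signal in liver was 0.103 for the short bait and 0.0614 for the long bait, a ratio of 1.68. In kidney the means were 0.108 and 0.0606, a ratio of 1.78. The short bait was higher at 5008 fragments in liver (83.0%) and at 5536 in kidney (91.8%). All 584 fragments within 200 kb of the nearer bait were higher for the short bait in liver, and all 584 were in kidney. Among the fragments kept, the nearest with a higher long-bait signal lay 202 kb from the baits in liver and 316 kb in kidney. The median difference, short minus long, was 0.0262 signal units in liver and 0.0323 in kidney, against a median combined deposited SD of 0.0269 and 0.0268.

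The profiles of the baits had the same outline. Across the 6032 fragments, the Pearson correlation of short and long signal was 0.947 in liver (Spearman 0.850) and 0.961 in kidney (Spearman 0.902). These fragments share the fall with distance and their smoothing, and neighbouring differences correlated at 0.987 in liver and 0.992 in kidney, so they are not independent. Beyond 500 kb, the median signal was 0.0250 in liver and 0.0259 in kidney for the long bait and 0.0455 and 0.0505 for the short bait. It was between 0.0222 and 0.0516 for the other 3 baits, which lie at other genes. The value of 0.0516 was that of the Pi3kap1 bait in kidney, whose libraries were sampled at ZT8.

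**Figure D1:**
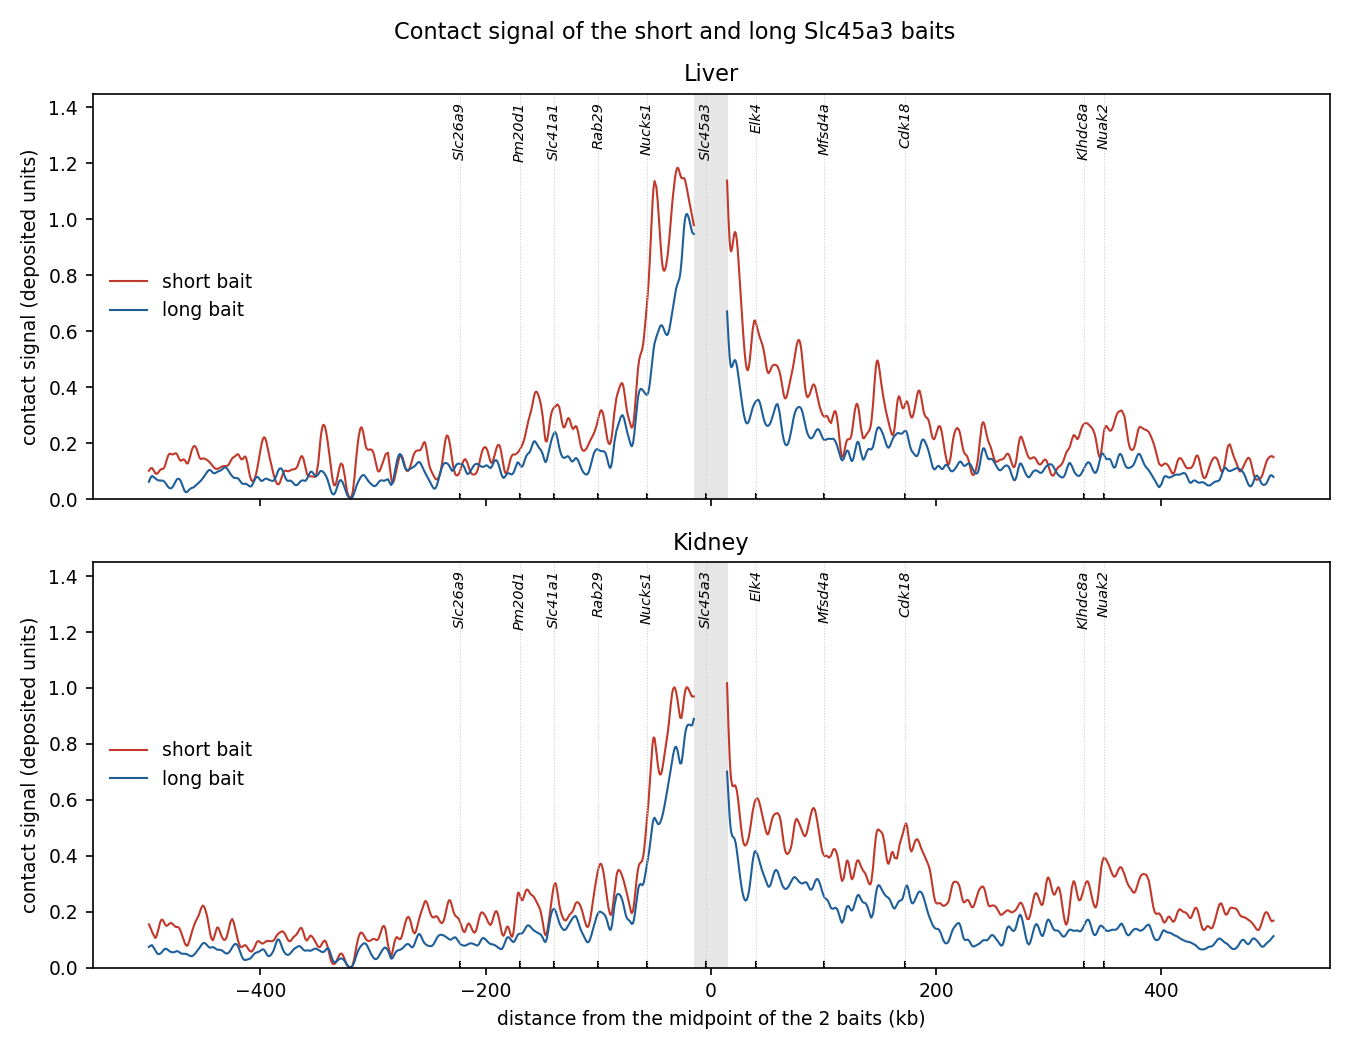
Contact signal in deposited units against distance from the midpoint of the baits in kb, for the short bait (red) and the long bait (blue) in liver and kidney. Lines are the 1 deposited value per tissue and fragment, the grey band holds the fragments left out, and gene starts are marked; the short bait lies above the long bait at all 584 fragments within 200 kb.

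The excess of the short bait was largest in signal units close to the baits and largest as a ratio far upstream of them. Between 10 and 50 kb upstream, the side on which the long bait is the closer one, the median signal in liver was 1.06 for the short bait and 0.717 for the long bait. In kidney it was 0.924 and 0.739. The median ratio of short to long there was 1.44 in liver and 1.29 in kidney, the lowest of the 8 classes of side and distance in each tissue. Between 10 and 50 kb downstream, where the short bait is the closer one, the medians in liver were 0.580 and 0.332, with a median ratio of 1.81. In kidney they were 0.535 and 0.342, with a median ratio of 1.57. Beyond 500 kb upstream the medians fell to 0.0247 and 0.0129 in liver, with a median ratio of 2.10, and to 0.0304 and 0.0124 in kidney, with a median ratio of 2.23. These ratios assume that the deposited scale has a true zero. Beyond 500 kb upstream the median difference was 0.00755 in liver and 0.0148 in kidney, below the median combined deposited SD over all fragments. The short bait was higher at 77.9% of these fragments in liver and 86.1% in kidney, the lowest share of any class in each tissue.

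Both baits had more signal upstream than downstream between 10 and 50 kb, and more downstream than upstream between 50 and 200 kb. Distances are to the nearer bait, so the upstream classes lie 8444 bp further from the short bait and the downstream classes 8444 bp further from the long bait. Between 10 and 50 kb, the upstream median was 1.82 times the downstream median for the short bait in liver and 1.73 times in kidney. For the long bait the same ratio was 2.16 in liver and 2.16 in kidney. Between 50 and 200 kb the ratio was below 1 for each bait, at 0.808 (short) and 0.757 (long) in liver and 0.549 (short) and 0.566 (long) in kidney. These side ratios are comparisons within 1 table and do not depend on the scale between tables. The counts that follow use 1 level for both tables, and do depend on it. Signals of at least 0.5 reached 170 kb downstream of the short bait in kidney (82 fragments downstream) and 76.3 kb in liver (60 fragments). The long bait had 4 downstream fragments at 0.5 or more in kidney and 3 in liver, none further than 21.8 kb from it.

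**Figure D2:**
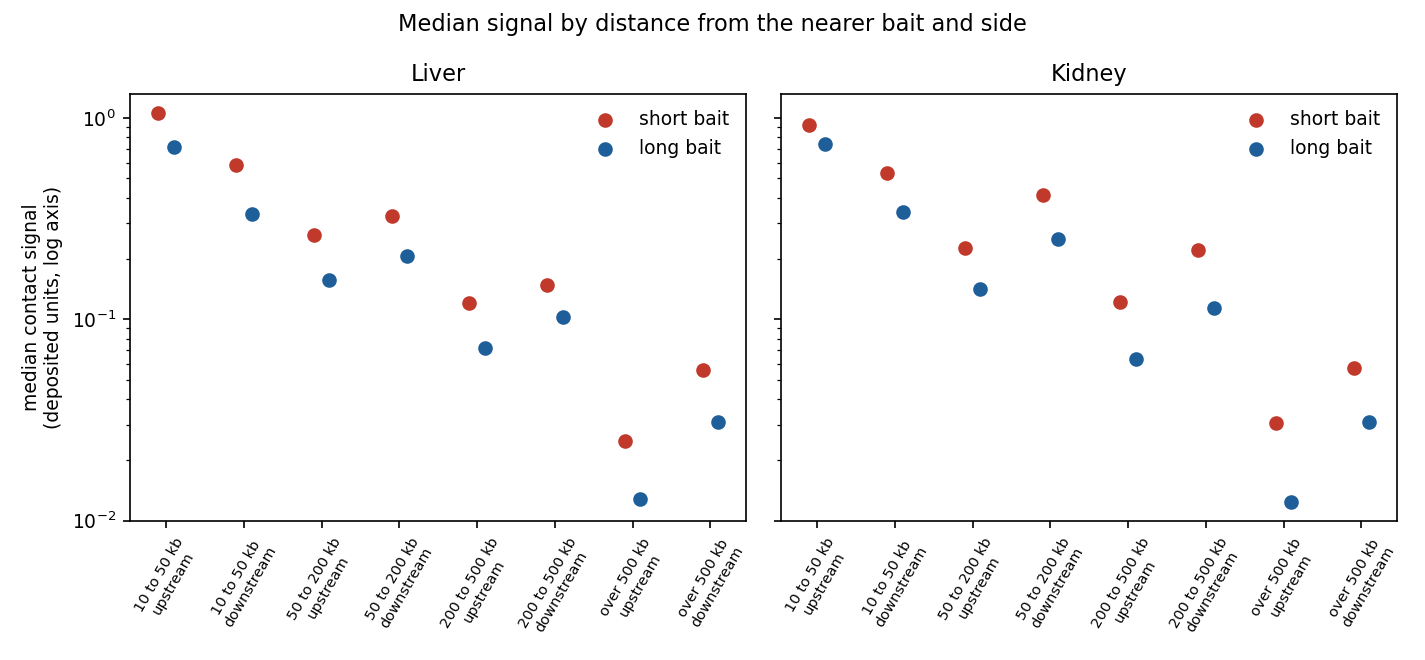
Median contact signal in deposited units on a log axis, for the short bait (red) and the long bait (blue), in 8 classes of distance from the nearer bait and side. The points of the baits are closest together 10 to 50 kb upstream, where the median ratio was 1.44 in liver and 1.29 in kidney.

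Fragments were called where the baits differed by at least 0.2 signal units. In liver 124 of 6032 fragments passed (2.06% of all fragments tested), each with the short bait higher, and 0 passed with the long bait higher (0.0%). In kidney 129 passed (2.14%), also each with the short bait higher, and 0 with the long bait higher (0.0%). Joined across gaps of up to 10 kb they made 5 regions in liver and 7 in kidney, and 54 fragments were called in both tissues (0.895%).

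The largest difference in liver lay over Nucks1. The region ran from 131908629 to 131942936 (34.3 kb, 49 called fragments) and contained the Nucks1 start site. At its peak, 131917256 in an intron of Nucks1, the liver signal was 1.14 for the short bait and 0.558 for the long bait, a difference of 0.579 with a combined deposited SD of 0.0502. In kidney the same fragment had 0.820 and 0.536, a difference of 0.284. The kidney region there was shorter, from 131912174 to 131935585 with 19 called fragments, all of which were also called in liver. The Nucks1 peak lay 54.1 kb from the short bait and 45.7 kb from the long bait, so the bait with more deposited signal was the one further away. With the baits scaled to the same mean, as described below, the short bait stayed higher there in liver (0.160) and the long bait was higher in kidney (-0.107).

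Downstream, the region next to the baits ran from 131981005 to 132017093 in liver (48 called fragments) and to 132029979 in kidney (36 called fragments). It covered the last exon of Slc45a3 and the start of Elk4. Its largest difference was at the first fragment kept, 131981603 in that exon, where the signal was 1.14 and 0.671 in liver and 1.02 and 0.701 in kidney. With the baits scaled to the same mean, as described below, the difference there was 0.00934 in liver and -0.182 in kidney. That fragment is 10.2 kb from the short bait and 18.7 kb from the long bait. The difference depends on where the 10 kb limit falls, since the fragment just inside it at 131980425, which was left out, had 1.24 and 0.737 in liver. On the upstream side the last fragment left out, at 131953297, had 0.963 (short) and 0.972 (long) in liver and 0.980 and 0.938 in kidney. The first fragment kept there, at 131952090, had 0.980 and 0.948 in liver and 0.970 and 0.890 in kidney.

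Another liver region, the third by size of difference, lay in Cdk18, which encodes a cyclin-dependent kinase. It ran from 132112444 to 132117515 and peaked in an exon, where the signal was 0.491 (short) and 0.246 (long) in liver and 0.485 and 0.279 in kidney. Scaled, its difference was 0.0617 in liver and -0.0107 in kidney. The third kidney region lay within Mfsd4a, a gene of the major facilitator superfamily, from 132042833 to 132061922, and peaked in an intron. At its peak, 132057492, the kidney signal was 0.568 and 0.284, and the liver signal was 0.406 and 0.221, with scaled differences of 0.0469 and 0.0279. Of the other regions, 2 in liver had peak differences of 0.240 and 0.224 and 4 in kidney had peak differences of 0.205 to 0.255. Among these was a kidney region from 132313369 to 132331337 over Nuak2 and its start site, chosen for mention after its values were seen. At its peak the kidney signal was 0.393 for the short bait and 0.139 for the long bait, against 0.253 and 0.154 in liver, and 0 of its 22 called fragments were called in liver.

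The direction of the difference near the baits depended on the scale between tables. When each bait was scaled to the same mean over the 6032 fragments within a tissue, no fragment was called with the short bait higher. The calls were then 20 fragments in liver (0.332%) and 46 in kidney (0.763%) with the long bait higher. They formed 1 region per tissue, from 131940561 to 131952672 in liver and from 131923965 to 131952672 in kidney, directly upstream of the long bait and its start site. At the liver peak, 131947173, the deposited signals were 1.08 (short) and 1.01 (long) and the scaled difference was -0.491. At the kidney peak, 131952090, the deposited signals were 0.970 and 0.890 and the scaled difference was -0.482. After this scaling the median difference 10 to 50 kb upstream was -0.121 in liver and -0.303 in kidney, and 10 of 61 and 0 of 61 fragments were higher for the short bait. The Nucks1 stretch held the largest remaining excess of the short bait in liver, 0.171 signal units at 131915992. In kidney the largest was in an intron of Nuak2, 0.116 at 132317926. As a share of each bait's own total, which the scale does not touch, the 10 to 50 kb upstream class held 10.1% for the short bait and 12.3% for the long bait in liver. In kidney it held 8.24% and 11.7%. This class lies 8444 bp closer to the long bait, so its scaled difference and its share cannot be told apart from distance. With the signal at the same distance from each bait removed, as described below, its median difference was 0.0573 in liver and 0.0293 in kidney. The short bait was then the higher one by the median, on a curve that pooled both sides of each bait. The class 200 to 500 kb downstream held more of the short bait's total in kidney (16.1% against 14.1%) and slightly less in liver (12.1% against 12.3%).

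**Figure D3:**
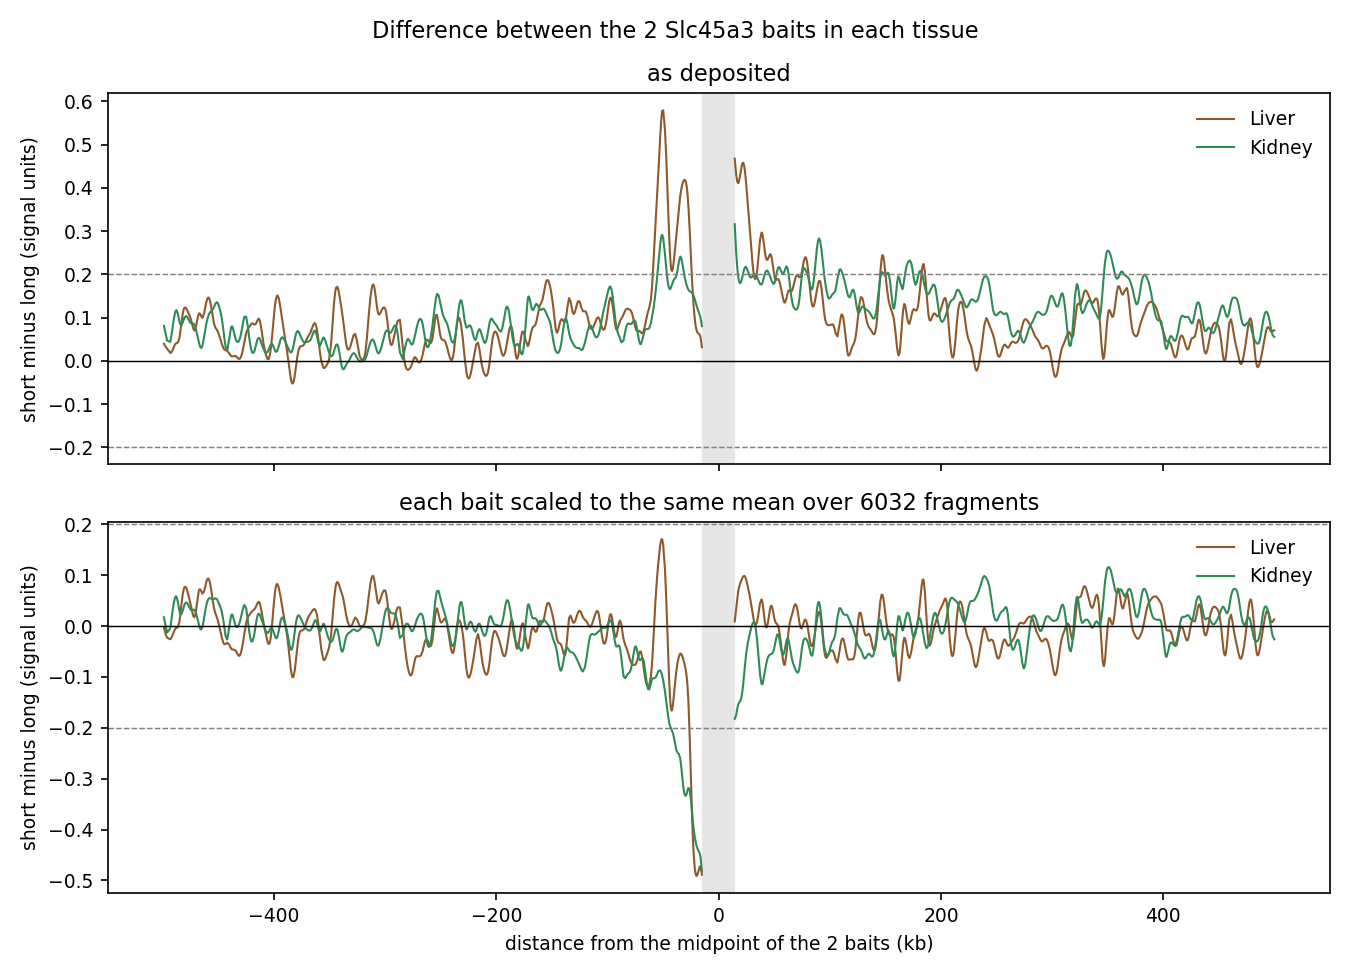
Difference short minus long in signal units against distance from the midpoint of the baits in kb, for liver (brown) and kidney (green), as deposited and with each bait scaled to the same mean over 6032 fragments. Dashed lines mark 0.2 signal units in either direction; the deposited difference peaks at 0.579 over Nucks1 in liver, and after scaling the long bait exceeds the short one by 0.2 or more just upstream of the baits.

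Of 21 protein-coding genes with a start site within 500 kb of the midpoint of the baits, each was read at the kept fragment nearest its start. For Slc45a3 the nearest fragments had been left out, and the value is that of the fragment 10877 bp upstream of its annotated start, the first kept upstream fragment given above. For the other 20 genes the fragment was centred within 733 bp of the start. The short bait was higher as deposited at 19 of 21 genes in liver and at 21 of 21 in kidney, against 92.9% and 98.7% of all fragments within 500 kb. The median difference was 0.0593 in liver and 0.108 in kidney. At least 0.2 signal units were reached by 2 genes in each tissue, against 8.32% of all fragments within 500 kb in liver and 8.65% in kidney. After scaling to the same mean, the short bait was higher at 6 of 21 genes in liver and 12 of 21 in kidney, against 46.0% and 50.4% of all fragments within 500 kb. The count of genes in each direction thus followed the scale.

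Among the genes upstream, Nucks1 had the most signal. At its start (131910534, plus strand) the liver signal was 0.687 for the short bait and 0.373 for the long bait, a difference of 0.314 (combined deposited SD 0.0457). In kidney the values were 0.520 and 0.364, a difference of 0.155. Scaled to the same mean, the Nucks1 difference was 0.0480 in liver and -0.102 in kidney. With the signal at the same distance removed it was 0.195 in liver and 0.0314 in kidney, so its sign in kidney depended on the processing. At Rab29, which encodes a small GTPase, the signal was 0.290 and 0.177 in liver and 0.354 and 0.197 in kidney. Slc41a1, which encodes a magnesium transporter, had 0.327 and 0.236 in liver and 0.293 and 0.211 in kidney. Pm20d1 encodes a secreted enzyme that makes N-acyl amino acids, and its start had 0.175 and 0.127 in liver and 0.266 and 0.122 in kidney. Only the short bait's signal at Pm20d1 was higher in kidney than in liver. Further upstream, at Slc26a9, Rab7b, Ctse, Avpr1b, Fam72a and Srgap2, every signal of either bait was at most 0.170.

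Downstream, Elk4 was the nearest gene start (132007607, plus strand), with 0.636 and 0.348 in liver and 0.600 and 0.417 in kidney for the short and long bait. The difference was 0.288 in liver (combined deposited SD 0.0458) and 0.183 in kidney, and scaled it was 0.0413 and -0.112. With the signal expected at the same distance from each bait removed, the Elk4 difference turned to -0.398 in liver and -0.267 in kidney. That expected signal was a median over both sides of the bait, and at 10 to 50 kb the upstream side had more signal. The turn therefore cannot be told apart from the difference between sides. Mfsd4a had 0.295 and 0.212 in liver and 0.400 and 0.253 in kidney. Cdk18 (start 132139684, minus strand) had 0.346 and 0.245 in liver, a difference of 0.101, and 0.516 and 0.289 in kidney, a difference of 0.227. The start of Klhdc8a had 0.269 and 0.110 in liver, a difference of 0.159, and 0.283 and 0.150 in kidney, a difference of 0.134. Scaled, the Klhdc8a difference was 0.0675 in liver, the highest of the 21 genes there, and 0.0126 in kidney. Nuak2 (start 132316126, plus strand), 349 kb from the midpoint, had 0.237 and 0.161 in liver, a difference of 0.0765, and 0.393 and 0.143 in kidney, a difference of 0.251 (combined deposited SD 0.0434). Scaled, the Cdk18 difference was -0.0518 in liver and 0.000246 in kidney, and the Nuak2 difference was -0.0261 in liver and 0.108 in kidney. With the signal at the same distance removed, the Cdk18 difference was -0.0146 in liver and 0.101 in kidney. The Nuak2 difference was then 0.0162 in liver and 0.190 in kidney. The remaining downstream starts, Lemd1 and AC124108.1 (which share a fragment), Gm10188, Tmcc2 and Dstyk, differed by 0.0384 to 0.0724 in liver and by 0.0690 to 0.126 in kidney.

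**Figure D4:**
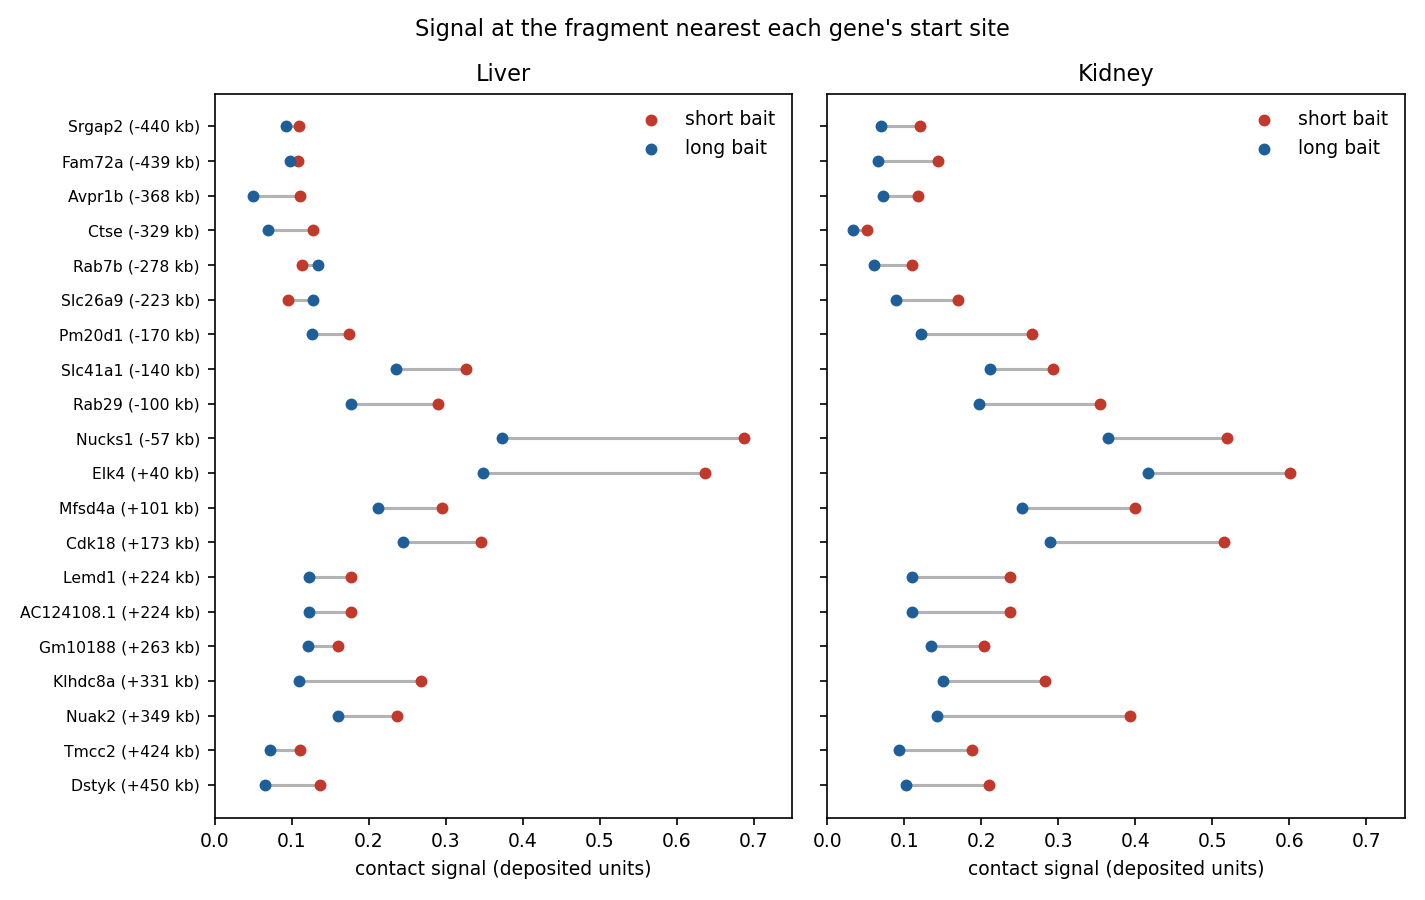
Contact signal in deposited units at the fragment nearest each of 20 gene starts, ordered from upstream to downstream with the distance from the midpoint of the baits in kb, for the short bait (red) and the long bait (blue). The widest gap in liver is at Nucks1 (0.687 and 0.373) and in kidney at Nuak2 (0.393 and 0.143).

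The tissues were then set side by side, since the liver and kidney libraries are separate measurements of the same pair of baits. As deposited, the sign of the bait difference was the same in both tissues at 4844 of 6032 fragments (80.3%). Of these, 4678 were higher for the short bait in both and 166 higher for the long bait in both. The short bait was higher at 83.0% of all fragments in liver and 91.8% in kidney. A high share with the same sign follows from these shares alone. Scaled to the same mean, the sign was the same at 3261 (54.1%). Within 10 to 50 kb upstream it was the same at 51 of 61 fragments after scaling, each time with the long bait higher. All 61 lie closer to the long bait in both tissues, so this sharing cannot be told apart from distance. With the signal at the same distance removed, 34 of the 61 were higher for the short bait in both tissues. The long bait was then higher in both at 13. After scaling, the sign 10 to 50 kb downstream was the same at 11 of 59 fragments (18.6%), and 48 fragments were higher for the short bait in liver only. The Pearson correlation of the liver and kidney bait differences across all 6032 fragments was 0.647 as deposited (Spearman 0.506) and 0.466 scaled (Spearman 0.0781). Between 10 and 50 kb, the scaled Pearson correlation was 0.908 upstream (61 fragments) and -0.431 downstream (59 fragments). Within the far classes the scaled Pearson correlation was 0.0725 upstream and 0.0452 downstream (2230 and 2299 fragments beyond 500 kb). The points share the fall with distance and the smoothing named above.

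Kidney against liver was also compared within each table, where the scale between baits plays no part. For the short bait the summed signal 200 to 500 kb downstream was 1.40 times as high in kidney as in liver, and for the long bait 1.13 times. Between 50 and 200 kb downstream the ratios were 1.23 and 1.18. Upstream between 10 and 50 kb they were 0.853 and 0.935. Over all fragments they were 1.05 and 0.987. By these sums both baits had more signal 50 to 500 kb downstream and less signal 10 to 50 kb upstream in kidney than in liver. The upstream order of the long bait depended on the statistic, since its class median was 0.739 in kidney and 0.717 in liver. Over the 8 classes the ratio ran from 0.853 to 1.40 for the short bait and from 0.839 to 1.18 for the long bait.

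Single loci differed more. At the Nucks1 start the short bait's kidney to liver ratio was 0.756, while the long bait's was 0.976. At the Nuak2 start the ratios were 1.66 and 0.887, so the short bait's signal was higher in kidney and the long bait's slightly lower. Kidney minus liver was 0.156 signal units for the short bait and -0.0181 for the long bait. The combined deposited SD at that fragment was 0.0458 in liver and 0.0434 in kidney, larger than the long bait's change. At Cdk18 they were 1.49 and 1.18, and at Elk4 0.944 and 1.20. Of the 10 genes downstream, 9 had more short-bait signal in kidney, against 87.1% of all downstream fragments within 500 kb. For the long bait 7 did, against 75.3% of those fragments. Of all 21 genes the ratio was larger for the short bait at 15 and smaller at 6, against 58.1% of all fragments within 500 kb with a larger one. Lemd1 and AC124108.1 enter these counts with the same fragment. Kidney minus liver of the deposited bait difference was lowest at the Nucks1 peak, at -0.296 signal units. It was highest at 132314730, just before the Nuak2 start, where the kidney signals were 0.379 and 0.149 and the liver signals 0.194 and 0.164.

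A difference of at least 0.1 signal units between the tissues, a size chosen after the values were seen, was reached for the short bait by 194 fragments with kidney higher and 146 with liver higher. For the long bait it was reached by 4 with kidney higher and 17 with liver higher. The short bait's higher overall level widens its differences in signal units, so these counts cannot be told apart from the scale of its table.

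In kidney RNA both start sites were used, and the long one gave more transcript. Across the 12 wild-type libraries, Slc45a3-202, from the long start site, ranged from 4.41 to 9.83 TPM, a length-corrected share of each library's transcripts, with a median of 7.25. Slc45a3-201, from the short start site, ranged from 1.48 to 4.15 TPM with a median of 2.10. The ranges did not overlap. The long transcript had its highest mean at ZT20 (9.07 TPM ± 0.711, SD, n = 2), close to that at ZT0 (8.96 TPM ± 1.23, SD, n = 2). Its lowest mean was at ZT8 (4.95 TPM ± 0.766, SD, n = 2). The libraries of ZT8 held 4.41 and 5.49 TPM and those of ZT20 held 8.57 and 9.57 TPM. These times were picked as the extremes of the 6 means, so their separation is no test of a change with time. No test was made on 2 libraries a time. The short transcript had means between 2.05 and 2.82 TPM at the 6 times. At ZT4 its libraries held 4.15 and 1.48 TPM, so the difference between libraries of 1 time was as wide as its whole range. At ZT20, the time of the contact libraries, the long transcript made up 80.1% ± 7.77 (SD, n = 2) of the sum of the long and short transcripts, and 76.1% ± 8.61 (SD, n = 2) of all 4 Slc45a3 transcripts. Slc45a3-203 and Slc45a3-204 had means of 0.627 TPM ± 0.399 and 0.158 TPM ± 0.171 over the 12 libraries (SD). Reads in the shared exons are divided between the transcripts by the authors' quantification, and these mice differ from those of the contact libraries in strain and feeding.

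**Figure D5:**
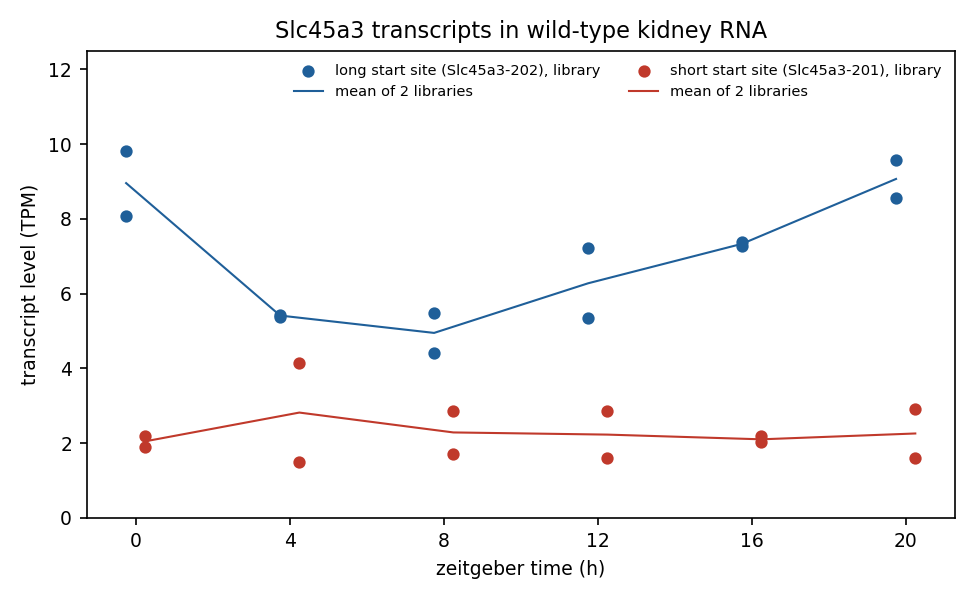
Level of the Slc45a3 transcripts in wild-type kidney in TPM against zeitgeber time in hours; points are libraries and lines join the means of the 2 libraries at each time. The long transcript lies between 4.41 and 9.83 TPM and the short transcript between 1.48 and 4.15 TPM.

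The genes with the most contact signal were also transcribed in kidney, at unequal levels. Per gene, the mean over the 12 wild-type libraries was 13.4 TPM ± 0.779 (SD) for Nucks1, 18.3 TPM ± 3.06 (SD) for Elk4 and 20.8 TPM ± 2.26 (SD) for Cdk18. Nuak2 had 32.4 TPM ± 8.71 (SD), with libraries from 18.4 to 48.7 TPM, and Mfsd4a had 54.3 TPM ± 7.48 (SD), the highest of the 21 genes. Slc45a3 itself had 10.1 TPM ± 1.93 (SD) over all its transcripts. Slc26a9 and Avpr1b, both far upstream with low signal from either bait, had at most 0.0380 and 0.00521 TPM in any library. Of the other far-upstream genes, Srgap2 had a mean of 8.21 TPM, and Ctse, Rab7b and Fam72a had means of 0.204 to 0.828 TPM. Lemd1, AC124108.1 and Gm10188 had means of at most 0.0183 TPM, beside short-bait kidney signals of 0.204 to 0.237. Pm20d1 had 35.2 TPM ± 7.09 (SD) beside short and long kidney signals of 0.266 and 0.122, so a high RNA level did not go with a high contact signal at every gene.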

How the data were processed

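Per the file headers, the authors deposited for each bait a signal per fragment, treated here as a score of unstated scale, with a column named as its variance. Their Z-score and p-value columns were not used. Each tissue had 1 value per fragment, so the 2 libraries had been combined before deposit. The submitters' processing notes name build mm9 for the contact libraries, and the mapping tool and smoothing are not given in the sources used here. The authors deposited TPM per transcript for the kidney RNA, with kallisto 0.42.4 and builds mm10 and GRCm38 in the submitters' processing notes. The 12 other columns of that table, named as Bmal knockouts, were not used.

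Fragment offsets were placed on GRCm38 (RefSeq) by their GATC fragments. Short and long fragments were paired where short offset equalled long offset minus 8444 bp within 5 bp (all 6048 pairs were exact). Genes were taken from GENCODE M21. Signals of the baits were compared as deposited, scaled to the same mean, and with the signal at the same distance removed. The signal at the same distance was the median in bins of distance, with fragments of both sides of the bait pooled. All values were computed with Python 3.11.15 (pandas 2.3.3), and region calling was tested on simulated data. Named were Slc45a3, protein-coding genes within 500 kb, and up to 3 regions per tissue and direction with the largest difference. Members, motifs and gene rule were chosen with earlier results of these data known.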

Additional observations from a re-analysis of the deposited data

Results flagged for a closer look

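At 2 gene starts the deposited bait difference had opposite signs in liver and kidney. At Rab7b the long bait was higher in liver (0.134 against 0.114) and the short bait in kidney (0.110 against 0.0601), so the short minus long difference was 0.0697 signal units higher in kidney. At Slc26a9 the long bait was higher in liver (0.127 against 0.0954) and the short bait in kidney (0.170 against 0.0888), a change of 0.113. The liver differences of -0.0202 and -0.0319 compare with combined deposited SDs of 0.0384 and 0.0316. The difference between tissues was not tested. With the signal at the same distance removed, the opposite signs were gone. The differences were then -0.0578 in liver and -0.0273 in kidney at Rab7b and -0.0686 and -0.0190 at Slc26a9. Scaled to the same mean, the opposite signs remained, at -0.0886 in liver and 0.00190 in kidney at Rab7b and -0.0944 and 0.00884 at Slc26a9. The opposite signs therefore depended on the processing.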

How the results depend on the processing

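No paired analysis was possible because the deposited tables combine the libraries EF and GH, and for the same reason no contact library could be left out. Scaling decided the direction of calls. With each bait scaled to the same mean, 20 fragments in liver and 46 in kidney were called, all with the long bait higher; the median difference was 0.000845 in liver and 0.00247 in kidney, and 54.1% of fragments had the same sign in both tissues. Scaled to the same median beyond 500 kb, chosen after seeing the data, 30 and 58 were called, all with the long bait higher; the medians were -0.000689 in liver and -0.000217 in kidney, and 54.8% had the same sign. With the signal at the same distance removed, 49 fragments in liver (34 short higher, 15 long higher) and 29 in kidney (17 and 12) were called, the medians were -0.00439 and -0.00248, 61.3% had the same sign, and the Elk4 difference became -0.398 in liver and -0.267 in kidney; that curve rests on bins of under 20 fragments up to 24.6 kb from the short bait and 32.2 kb from the long bait. The curve also pooled both sides of each bait. With fragments within 50 kb left out, 33 were called in liver. Thresholds of 0.1 and 0.3 signal units gave 673 and 53 calls in liver and 846 and 1 in kidney, all with the short bait higher. A ratio of 1.5 gave 4257 in liver (489 with the long bait higher) and 4638 in kidney (249), and 2 combined deposited SD gave 1515 (6) and 1811 (4). Joined across 30 kb, kidney had 4 regions. Exact matching and a 20 kb limit kept each count of fragments within 1.5 times, with the short bait higher. Without RNA replicate A or B, the mean over times was 7.20 or 6.80 TPM for the long transcript and 1.75 or 2.83 TPM for the short one.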
